A study of Mus musculus with 20 samples.

Results

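The regions described here are the H3K14ac peaks that were called at transcript starts in the livers of old mice and had no counterpart in the livers of young mice. They were selected on the readout itself. A member is a peak of the old H3K14ac list on chr1 to chr19 that is exactly 500 bp wide, shares no base with any peak of the young H3K14ac list, and lies by its nearest base within 1 kb of a transcript start of the GENCODE basic annotation of mm10. Of the 20463 old H3K14ac peaks, 19690 were 500 bp wide and on these chromosomes, 7171 of those lay at a start, and 4814 met the whole rule. The whole series holds 175329 peaks in 6 lists. The presence of the mark in old liver and its absence in young liver at these sites is therefore how they were chosen and no result.

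H3K14ac, Setdb1 and Kap1 were immunoprecipitated from snap-frozen livers of wild-type male C57BL/6 mice and sequenced (ChIP-Seq). Young mice were 3 months and old mice 21 months of age, and no other treatment or allele distinguished the groups. The reads of 3 livers per age for H3K14ac and Setdb1, and of 2 livers per age for Kap1, were merged before peaks were called, by the methods and the labels. Each mark and age is thus represented by 1 list of positions, without height or score, so that the depth behind a peak is unknown, no spread between livers exists and no difference could be tested. Where a share has a 95% interval (Wilson), the interval reflects the number of peaks, starts or genes counted and nothing else. Shares of gene lists, of parts of the peak list and of chromosomes are given without one. The tissue is bulk liver, in which fewer cells carrying the mark and less mark per cell cannot be told apart.

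Acetylation of lysine 14 on histone H3 is placed by acetyltransferases such as Gcn5, PCAF and the Kat6 and Kat7 complexes and is removed by histone deacetylases. In mammalian genomes the mark accumulates on the nucleosomes that flank the starts of transcribed genes, many of which lie in CpG islands, stretches in which the dinucleotide CpG has escaped the depletion seen in the rest of the genome. Setdb1 is a methyltransferase of H3K9 whose Tudor domains can bind H3 tails that carry both K14 acetylation and K9 methylation, and Kap1, encoded by Trim28, is the corepressor that brings Setdb1 to KRAB zinc finger proteins. Of 10 hepatocyte markers, 4 had an old H3K14ac peak of any kind at a start (Apoa1, Apoa2, Apob and Ttr), and Alb, Serpina1a, Fgb, Cps1, Tat and Hnf4a had none. No hepatocyte marker was near a member. The marker lists of Kupffer cells, sinusoidal endothelium, stellate cells, B cells and T and NK cells held no gene with an old peak. Among the cholangiocyte markers only Sox9 had one. Of the hepatocyte, Kupffer, B, T and NK cell markers 0 have a start like a CpG island, of the endothelial ones 1 of 8 and of the stellate ones 4 of 8. Members were rarer at genes without such a start (6.55%, against 29.4%), so these short lists do not tell cell types apart.

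The sequence under the members spanned the full range from CpG islands to stretches with no CpG at all. The 6 stretches printed here show that range. They come from the 3 members with the highest and the 3 with the lowest ratio of observed to expected CpG among members with no masked repeat and with at least 60 bases free of annotated exons, and each is the longest exon-free run of the peak, limited to its central 120 bases. They are written 5′ to 3′ on the strand of the nearest gene (GRCm38), with each CpG in capitals. The 3 CpG-rich stretches lie downstream of the starts of Mapk8, a stress-activated kinase (chr14:33446806-33446925, minus strand), Hnrnpab, an RNA-binding protein (chr11:51606587-51606666, minus strand), and Ptma, prothymosin alpha (chr1:86527118-86527237, plus strand).
Mapk8: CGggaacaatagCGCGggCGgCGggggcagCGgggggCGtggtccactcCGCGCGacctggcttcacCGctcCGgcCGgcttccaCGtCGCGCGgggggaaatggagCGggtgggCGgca
Hnrnpab: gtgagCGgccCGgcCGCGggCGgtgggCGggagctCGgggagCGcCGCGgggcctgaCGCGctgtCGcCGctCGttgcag
Ptma: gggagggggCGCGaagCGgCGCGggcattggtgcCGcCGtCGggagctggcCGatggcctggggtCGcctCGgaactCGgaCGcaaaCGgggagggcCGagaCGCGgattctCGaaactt
The 3 stretches without any CpG come from members near Vmn1r210, a vomeronasal receptor gene (chr13:22832135-22832254, minus strand), Rnf32, a RING finger gene (chr5:29198196-29198315, plus strand), and the pseudogene Scgb2b23-ps (chr7:33627193-33627312, minus strand).
Vmn1r210: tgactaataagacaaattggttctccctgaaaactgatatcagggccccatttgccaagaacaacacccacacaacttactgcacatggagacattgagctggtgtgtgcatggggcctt
Rnf32: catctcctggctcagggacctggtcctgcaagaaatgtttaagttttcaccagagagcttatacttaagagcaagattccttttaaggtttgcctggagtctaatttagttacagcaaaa
Scgb2b23-ps: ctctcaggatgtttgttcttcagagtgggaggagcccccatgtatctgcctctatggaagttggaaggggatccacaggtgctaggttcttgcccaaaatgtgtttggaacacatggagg
The stretch at Mapk8 holds 19 CpG in 120 bases and the one at Ptma 18, whereas those at Vmn1r210, Rnf32 and Scgb2b23-ps hold 0. The GC content of the whole peak was 75.8% at Mapk8, 75.4% at Hnrnpab and 70.6% at Ptma, and 40.8%, 43.8% and 48.4% at Vmn1r210, Rnf32 and Scgb2b23-ps. 

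Stretches from genes of regulators discussed in the results show which short words occur in members at their starts. Capitals mark every match, on either strand, to the words searched listed further on with their counts, among them the GC box GGGCGG, the E-box CACGTG, the NRF1 word GCGCATGCG and the SRF and NF-kB consensus words. Genes and stretches were chosen for display after their values were seen. Stretches of the other Ehmt2 member and of members at Per2 and Cdkn1a held none of these words and are not printed. The stretches lie at chr17:46556176-46556244 (Srf, minus strand, which ends on the base before the start), chr5:76304549-76304654 and chr5:76304793-76304875 (Clock, minus strand), chr7:113207685-113207804 (Arntl, plus strand), chr17:34898687-34898806 (Ehmt2, plus strand), chr12:3807314-3807433 (Dnmt3a, plus strand) and chr7:13025081-13025200 (Trim28, plus strand).
Srf: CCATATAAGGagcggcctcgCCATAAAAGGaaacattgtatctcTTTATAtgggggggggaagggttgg
Clock, downstream member: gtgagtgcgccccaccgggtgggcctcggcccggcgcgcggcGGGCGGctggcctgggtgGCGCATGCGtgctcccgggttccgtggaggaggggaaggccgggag
Clock, upstream member: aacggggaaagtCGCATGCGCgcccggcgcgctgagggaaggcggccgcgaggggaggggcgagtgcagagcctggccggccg
Arntl: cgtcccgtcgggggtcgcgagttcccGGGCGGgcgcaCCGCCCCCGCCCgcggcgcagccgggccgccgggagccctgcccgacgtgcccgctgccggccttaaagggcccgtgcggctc
Ehmt2: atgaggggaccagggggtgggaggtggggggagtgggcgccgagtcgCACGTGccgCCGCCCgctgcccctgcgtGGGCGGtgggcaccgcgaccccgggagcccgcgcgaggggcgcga
Dnmt3a: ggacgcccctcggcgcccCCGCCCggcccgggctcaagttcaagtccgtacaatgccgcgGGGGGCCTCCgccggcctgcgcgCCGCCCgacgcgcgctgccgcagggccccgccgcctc
Trim28: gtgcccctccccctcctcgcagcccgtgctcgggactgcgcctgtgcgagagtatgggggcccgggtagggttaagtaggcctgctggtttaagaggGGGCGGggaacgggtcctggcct
The Srf stretch holds 2 matches to the SRF word, the CArG box bound by the Srf protein itself, and a TATAAA word on the opposite strand. Both Clock stretches hold an NRF1 word, and the downstream one also a GC box. For Clock, downstream and upstream give the place of the members relative to each other. The Ehmt2 stretch holds an E-box, the word bound by the Clock and Arntl proteins, and the Arntl, Ehmt2, Dnmt3a and Trim28 stretches hold GC boxes, the word bound by Sp1. A match is a description of letters and does not show that a factor binds there.

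The rule draws 2 lines, and peaks lay close to each line on both sides. By distance to the start, the farthest member was 1000 bp away and the nearest old-only peak left out was 1002 bp away. There were 102 members in the last 100 bp inside the limit and 87 old-only peaks in the first 100 bp outside it. By distance to a young peak, 1 member lay directly beside a young peak with 0 bases between them, and 76 members had a gap of at most 50 bp. On the other side, 3 old peaks at starts were left out for sharing 1 base with a young peak, and 77 for sharing at most 50 bp. The median member was 35300 bp from the nearest young peak, with 10% within 398.3 bp and 10% beyond 277069 bp. A young peak lay within 500 bp of 553 members (11.5%, interval 10.6% to 12.4%), and the start nearest the member had a young peak within 1 kb for 705 (14.6%, 13.7% to 15.7%). For those members the word old-only describes the 500 bp and not the promoter.

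The deposited order of the old list is not explained in the sources used here, but it was not neutral with respect to the selection. Of the old 500 bp peaks at starts, members were 58.4% in the first 25% of the list (1898 of 3252) and 76.3% in the last 25% (681 of 893), against 67.1% over the whole list. Members had a median place of 6923. The 2357 old peaks at starts that share a base with a young peak, called shared peaks from here on, had a median place of 3959, and the 11183 old-only peaks farther than 1 kb from a start had one of 12590. Whatever the order stands for, members stood between these classes. Its part in the results was not tested, and results that change in the first 50% of the list are given in the closing section.

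Members were arranged around starts with a clear direction. The midpoint of 3581 members lay downstream of the nearest start (74.4%, interval 73.1% to 75.6%), with a median of 179 bp into the transcribed side. More than 100 and up to 300 bp downstream lay 1554 members (32.3%, 31.0% to 33.6%), whereas 8.14% (7.4% to 8.95%) lay the same distance upstream. A further 681 (14.1%) were centred within 100 bp of the start and 1233 (25.6%) more than 500 bp away. The start itself was covered by 2210 members (45.9%, 44.5% to 47.3%). An exon of the basic annotation was overlapped by 3630 members (75.4%) and coding sequence by 2055 (42.7%).

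**Figure D1:**
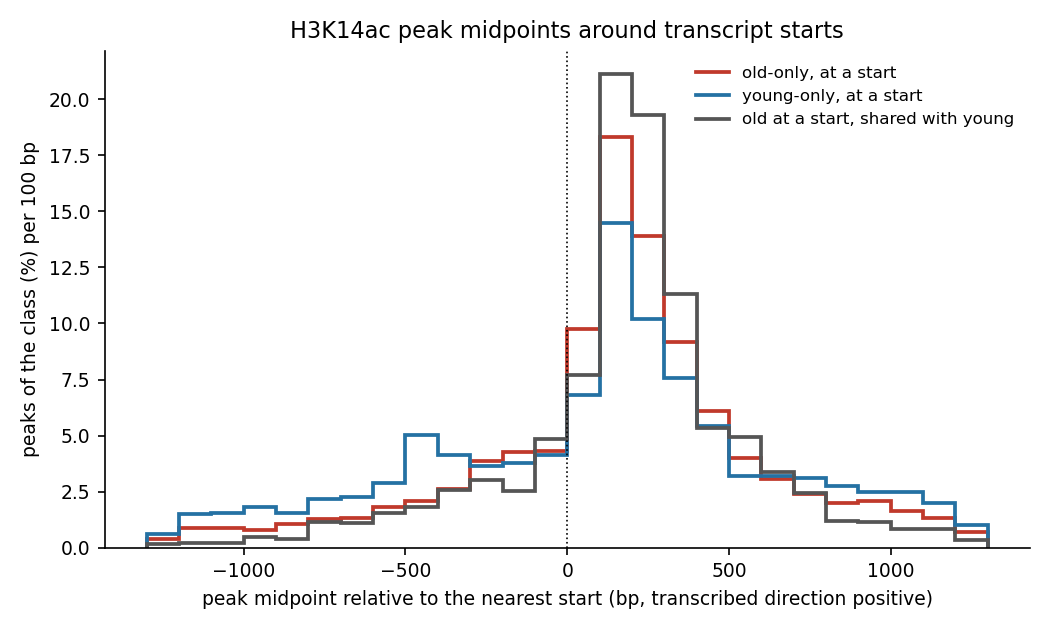
The position of H3K14ac peak midpoints relative to the nearest transcript start (x axis, bp, positive in the direction of transcription) is shown as the percentage of each class per 100 bp (y axis), for old-only (red), young-only (blue) and shared peaks (grey). All 3 classes are highest between 100 and 200 bp downstream, with 18.3% of old-only, 14.5% of young-only and 21.1% of shared peaks.

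The same asymmetry was present, to different extents, in the neighbouring classes. Young-only peaks at starts, 2715 in number and selected by the mirror rule, were centred downstream in 64.9% of cases (63.0% to 66.6%), and shared peaks in 79.9% (78.2% to 81.5%). The share more than 100 and up to 300 bp downstream was 24.8% for young-only and 40.3% for shared peaks. More than 500 bp from the start lay 34.7% of young-only and 20.2% of shared peaks, on either side of the 25.6% of members. The start was covered by 36.4% of young-only and 48.1% of shared peaks. The intervals of the 3 classes did not overlap for the downstream share, but these are counting intervals of single lists and the differences were not tested.

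Most members belonged to protein-coding genes. The nearest start was that of a protein-coding gene for 4011 members (83.3%, 82.2% to 84.3%), of an antisense transcript for 166, of a lincRNA for 149 and of a processed pseudogene for 127. Starts of genes on both strands lay within 1 kb of 987 members (20.5%, 19.4% to 21.7%), so that a peak there cannot be assigned to either gene. The protein-coding share was 72.5% (70.8% to 74.1%) for young-only and 88.5% (87.2% to 89.7%) for shared peaks. Processed pseudogenes were nearest to 2.64% of members, 6.52% of young-only peaks and 0.891% of shared peaks. Overlapping members shared their locus. The 4814 members merged into 4527 loci, of which 4258 held 1 member, 253 held 2, 14 held 3 and 2 held 4.

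The members were rich in CpG. Their median GC content was 64.6% and their median ratio of observed to expected CpG was 0.747, with the lower and upper quartiles at 0.467 and 0.892. A GC content of at least 50% together with a ratio of at least 0.6, the usual description of a CpG island, was met by 3183 members (66.1%, 64.8% to 67.4%). A minority of 850 (17.7%, 16.6% to 18.8%) had a ratio under 0.3, close to the bulk of the genome. Old-only peaks away from starts formed the opposite pattern, with a median GC content of 45.2%, a median ratio of 0.145 and 1.97% (1.73% to 2.24%) island-like. Among peaks at starts, young-only peaks had a median ratio of 0.493 and were island-like in 38.4% (36.6% to 40.3%), and shared peaks had a median ratio of 0.798 and were island-like in 77.7% (76.0% to 79.4%). Windows of 500 bp centred on the 39599 start positions of protein-coding genes had a median ratio of 0.614, and 50% of them were island-like.

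**Figure D2:**
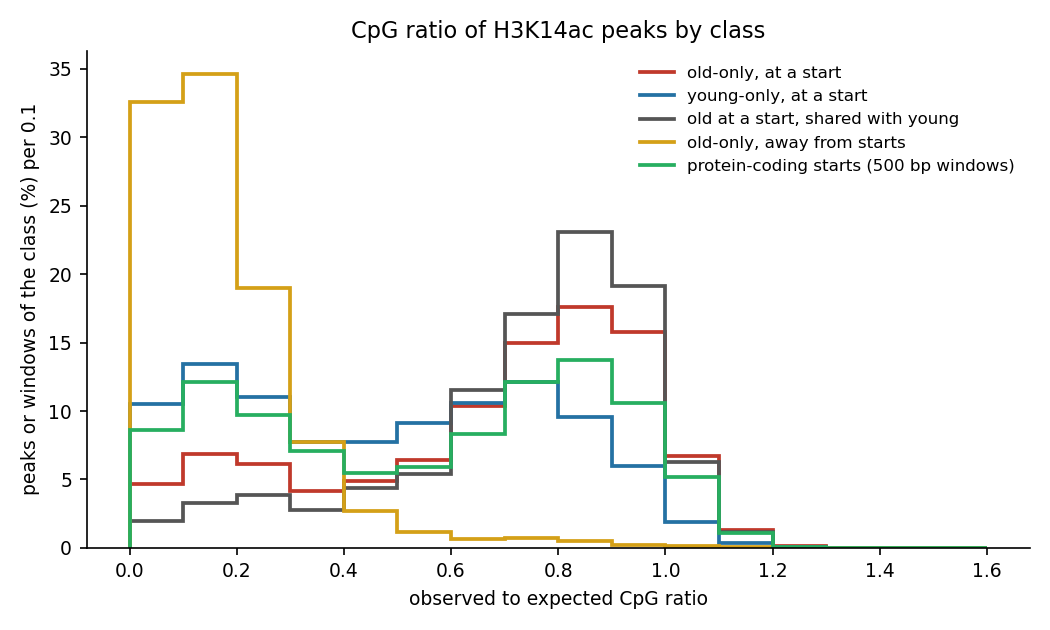
The ratio of observed to expected CpG (x axis, no unit) is shown as the percentage of each class per 0.1 (y axis) for old-only (red), young-only (blue) and shared peaks (grey) at starts, old-only peaks away from starts (yellow) and 500 bp windows at protein-coding starts (green). Old-only peaks at starts have their median at 0.747, between the young-only median of 0.493 and the shared median of 0.798, and old-only peaks away from starts are at 0.145.

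Read from the side of the starts, the CpG content of a start went with the frequency of a member. Of 12059 protein-coding start positions with a ratio under 0.3, 428 had a member within 1 kb (3.55%, 3.23% to 3.89%). The share was 11.7% for a ratio between 0.3 and 0.6 and 29.3% for a ratio of at least 0.6. Over the same classes the share with a young-only peak was 3.47%, 7.59% and 13.7%, and that with a shared peak 1.40%, 4.41% and 16.2%. At CpG-poor starts, old-only and young-only peaks were thus about equally frequent, and at CpG-rich starts members were the more frequent. These shares are of start positions, several of which can lie within 1 kb of the same peak.

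The share of members with a short word differed by word. For some words, such as the ETS word, its place against the start windows depended on which starts were taken. The GC box was found in 63.7% of members (62.4% to 65.1%), 40.5% of young-only, 70.4% of shared and 7.23% of old-only peaks away from starts, against 36.2% of the 500 bp windows at all 72109 annotated start positions and 54.5% of those of protein-coding genes. TATAAA occurred in 8.97% of members (8.20% to 9.81%), 14.7% of young-only and 5.39% of shared peaks, against 20.9% of all start windows and 15.3% of protein-coding ones. CCAAT was found in 33.7% of members, 49.4% of all start windows and 46.3% of protein-coding ones. The E-box was found in 8.70% of members (7.94% to 9.53%), which lay close to the 8.37% of all start windows and below the 10.1% of protein-coding ones. The ETS word CCGGAAG, in 12.8% of members (11.9% to 13.7%), stood above all start windows (10%) and below protein-coding ones (14.6%). The YY1 word AAGATGGCG was found in 2.53% of members, with an interval of 2.13% to 3.02% that met those of all start windows (2.06%) and protein-coding ones (2.90%). The NRF1 word was found in 1.45% of members, 1.52% of all start windows and 2.47% of protein-coding ones, and the cyclic AMP response word TGACGTCA in 1.20%, 1.76% and 2.51%. Of the words of liver and stress factors, in the same order, the ONECUT word ATCGATT was found in 0.623%, 0.703% and 0.629%, the HNF4 word CAAAGTCCA in 0.457%, 0.774% and 0.828%, the SRF word in 1.29%, 2.24% and 1.8%, and the AP-1 words (TGACTCA or TGAGTCA) in 4.94%, 6.91% and 6.15%. The NF-kB word occurred in 20.8% of members, above both all start windows (12.9%) and protein-coding ones (16.2%). It occurred in 13.8% of young-only and 23.6% of shared peaks. Both strands were searched. Members are centred downstream of starts while the windows are centred on them, and the words overlap in letters with the CpG content described above.

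Members seldom consisted mainly of repeats and seldom had a second copy. No masked base was present in 1453 members (30.2%), and the median member was masked over 5% of its length. A masked repeat covered at least 50% of the length in 61 members (1.27%) and in 13.2% of old-only peaks away from starts. A second copy of the sequence in the genome, over at least 90% of the length at 95% identity or more, was found for 21 members (0.436%, 0.286% to 0.666%), 1.58% of young-only and 1.02% of shared peaks. For those members the position rests on reads that the authors kept as uniquely aligned.

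Setdb1 and Kap1 peaks were rare at the members. A Kap1 peak of old liver shared a base with 75 members (1.56%, 1.24% to 1.95%) and a Kap1 peak of young liver with 118 (2.45%, 2.05% to 2.93%), and 36 members had both. The share with old Kap1 moved with the setting, to 0.748% in the first 50% of the old list, 0.988% with protein-coding starts only and 2.51% when Kap1 peaks up to 500 bp away were counted. For young Kap1 the same settings gave 1.53%, 1.48% and 3.99%. A Setdb1 peak of old liver shared a base with 8 members (0.166%, 0.0842% to 0.328%) and one of young liver with 33 (0.686%, 0.489% to 0.961%), and a gap of up to 500 bp gave 0.415% and 1.5%. For young Setdb1 the first 50% of the list gave 0.436% and protein-coding starts 0.447%. No member had both an old Kap1 and an old Setdb1 peak, where counting alone allows up to 0.0797% (Wilson), and 5 shared peaks (0.212%), 2 young-only peaks at starts (0.0737%) and 15 old-only peaks away from starts (0.134%) did. The factor lists are independent of the rule. They differ in length between the ages, so that the larger shares in the young lists go with longer lists, and the part of list length was not tested.

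**Figure D3:**
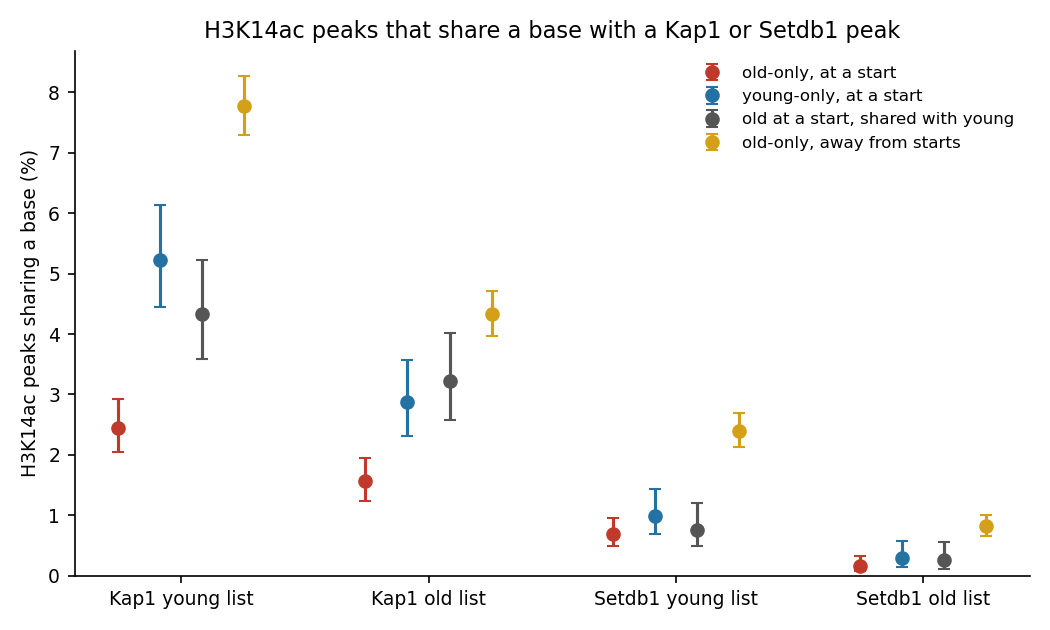
The percentage of H3K14ac peaks that share at least 1 base with a peak of each factor list (y axis) is shown for the young and old lists of Kap1 and Setdb1 (x axis), by class of H3K14ac peak, with 95% Wilson intervals as bars. With this rule old-only peaks at starts have the lowest point in each list, an order that turns for young Setdb1 when a gap of up to 500 bp is allowed, and range from 2.45% for young Kap1 to 0.166% for old Setdb1.

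With a shared base as the rule, the members had the lowest share of the 4 classes in each factor list. That order turned for young Setdb1 when a gap of up to 500 bp was allowed, with 1.5% of members and 1.15% of shared peaks. For old Kap1 the share was 3.22% (2.58% to 4.02%) in shared peaks, 2.87% (2.31% to 3.57%) in young-only peaks and 4.33% (3.97% to 4.72%) in old-only peaks away from starts, all with intervals above that of the members. For young Kap1 it was 4.33%, 5.23% and 7.77% in the same order. For old Setdb1 it was 0.255%, 0.295% and 0.814%, and the intervals of the classes at starts overlapped that of the members. For young Setdb1 it was 0.764%, 0.994% and 2.40%, again with overlapping intervals at starts. These differences were not tested, since each list is 1 pooled call.

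The members with a Kap1 peak differed from the other members in sequence. Those with an old Kap1 peak had a median CpG ratio of 0.211 and a median GC content of 47.8%, and those with a young Kap1 peak had 0.213 and 48.6%, against 0.747 and 64.6% for all members. The nearest start was protein-coding for 38 of the 75 members with old Kap1 (50.7%, 39.6% to 61.7%). Many of the others were pseudogenes and noncoding genes. Genes named Zfp, many of which encode the zinc finger proteins that bind Kap1, were nearest to 3 of the 75 (4%, 1.37% to 11.1%), against 104 of all 4814 members (2.16%). They were Zfp982 and Zfp985, which lie near each other on chr4 (147507156-147507655 and 147553061-147553560) and had Kap1 peaks of both ages, and the pseudogene Zfp783 on chr6. Among the protein-coding genes near members with old Kap1 were the hypoxia factor gene Hif3a with 2 such members, the chemokine receptor gene Ccr2 with 2, and the defensin genes Defb2 with 2 and Defb10 with 1. These genes were picked after their values were seen.

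The 8 members with an old Setdb1 peak lay nearest to Itln1, Gm13012, Ica1, Il11, Zscan18, Zfp658, Glycam1 and Gm22943. Only the member at Zscan18, a SCAN domain zinc finger gene, also had a Kap1 peak, that of young liver. The members at Ica1 (chr6:8778033-8778532, GC 71.4%), Il11, which encodes an interleukin (chr7:4777023-4777522, GC 69.0%), and Zscan18 (chr7:12780336-12780835, GC 66.2%) were GC-rich. Those at Itln1, an intestinal lectin, and Glycam1, a mucin, had 42.2% and 47.8%. No member had an old Setdb1 peak together with a young one.

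At the level of genes, 3981 of the 20807 protein-coding genes on chr1 to chr19 had a member within 1 kb of a start, which is 19.1%. A young-only peak was found at 10.1% of them and a shared peak at 9.95%. Of the 5752 genes with any old peak at a start, 69.2% had a member. No young peak lay within 1 kb of any start of 3242 of the genes with a member (81.4%, 80.2% to 82.6%), and the other 739 had a young peak at some start. The share also differed with the number of annotated starts, and the part of the number of windows in this was not tested. A member was found at 15.9% of genes with 1 start position, 20.5% of those with 2 to 3 and 30.3% of those with 4 or more. Among the 11476 genes with an island-like start, 29.4% had a member, and among the 9331 without one, 6.55%. A shared peak was found at 16.1% of the genes with an island-like start.

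Several members stood side by side at some genes. A total of 3361 genes had 1 member, 538 had 2, 72 had 3 and 9 had 4. Ahdc1, which encodes an AT-hook DNA-binding protein, had 5, with 3 centred at +111, +22 and +469 bp from its upstream starts and 2 at −602 and +13 bp from a start farther into the gene. The genes with 4 were Gnb2, a G protein subunit, Larp1b, an RNA-binding protein, Mindy1, a deubiquitinase, Nrip1, a corepressor of nuclear receptors active in lipid metabolism, Pdzd8, an endoplasmic reticulum tethering protein, Prkag2, the gamma subunit of the energy sensor AMPK, Ranbp9, a scaffold protein, Slc29a1, a nucleoside transporter, and U2af2, the splicing factor that reads the polypyrimidine tract. At Nrip1 the members were centred at −254, +131 and +457 bp from the same start, with 1 more on the start upstream of it, and the nearest young peak was 524020 bp away. At Pdzd8 they were centred at −270, +50, +492 and +849 bp, and the nearest young peak was 596885 bp away. Of these 10 genes only Slc29a1 had a young peak at a start, and there 1 member was 60 bp and another 259 bp from a young peak. The closest member at Mindy1 was 648 bp from a young peak that lay outside 1 kb of its starts.

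**Figure D4:**
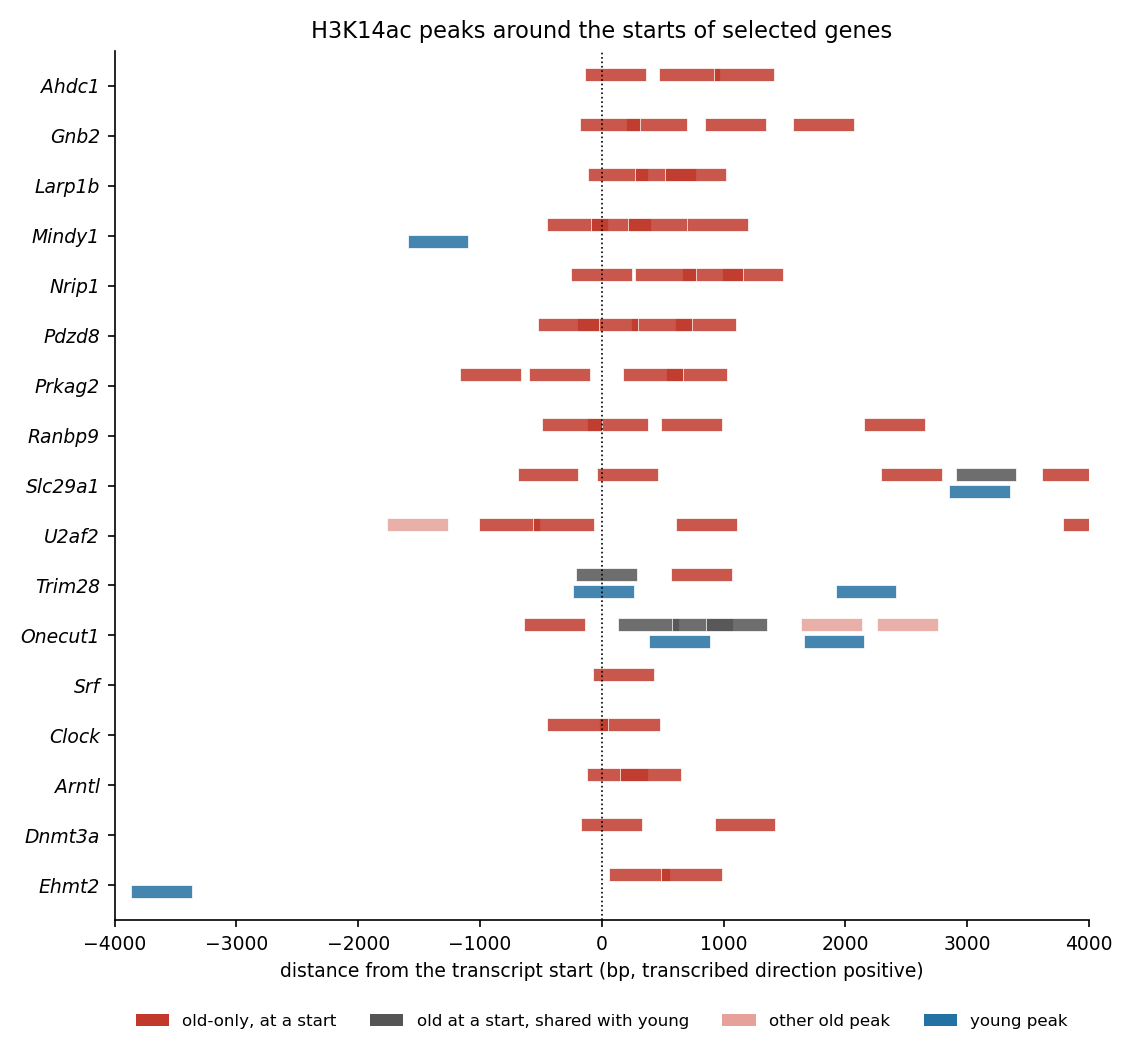
H3K14ac peaks are drawn to scale around the start with the most members (x axis, bp from the start, positive in the direction of transcription) for the 10 genes with the most members and 7 regulators named in the text (y axis), with old-only peaks in red, shared old peaks in grey, other old peaks in pale red and young peaks in blue. Members at starts outside the window, such as 2 of the 5 at Ahdc1, are not drawn. Mindy1, Slc29a1, Trim28 and Onecut1 have a young peak within 1 kb of a member, and Srf, Clock, Arntl and Dnmt3a have none in the window.

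The genes of H3K9 methylation and DNA methylation had members at a large share of the list. Of 24 such genes, 11 had a member (45.8%, against 19.1% of all genes and 29.4% of genes with an island-like start, which all 24 have), 3 had a young-only and 3 a shared peak, and 10 of the 11 had no young peak at any start, against 81.4% of all genes with a member. The genes of this list had a median of 3 start positions, against 2 over all genes. Among genes with an island-like start, the acute phase (70%), fatty acid synthesis (58.3%), clock (52.6%) and deacetylase (47.4%) lists were among those with larger shares. Dnmt3a, the de novo DNA methyltransferase, had 3 members, on 2 starts. The first was centred 82 bp past the start with a GC content of 82.0%. Dnmt1, the maintenance methyltransferase, and Ehmt2, the H3K9 methyltransferase G9a, had 2 each at their starts. Among the enzymes that remove H3K9 methylation, Kdm3b had 2 members, and Kdm3a, Kdm4a, Kdm4b and Kdm4c had 1 each. Suv39h2, an H3K9 methyltransferase, and Dnmt3b had 1. Trim28, which encodes Kap1, had 1 member (chr7:13024721-13025220), centred 818 bp past the start and 303 bp from a young peak, while its start was covered by a shared peak. Setdb1 itself had no H3K14ac peak at a start at either age.

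Members were also found at genes that add, read and remove acetylation. Of 25 acetyltransferases and readers, all with an island-like start, 10 had a member (40.0%, against 29.4% of all genes with such a start), among them Brpf1, a scaffold of the Kat6 complexes that acetylate H3, with 2 members, Ncoa2 with 2, and Kat6b, Kat7, Kat8 and Brpf3 with 1 each. Brd2, a bromodomain reader, had 2 members beside 3 shared peaks. Of 21 deacetylases and their corepressors 9 had a member (42.9%, with a median of 3 start positions per gene in the list), all of them among the 19 with an island-like start (47.4% of those, against the same 29.4%), among them Sirt5 with 2 and Hdac2, Hdac4, Hdac10, Sirt1, Ncor1, Sin3b and Rcor1 with 1 each. The member at Hdac2 was 32 bp and that at Ncor1, the corepressor that activates Hdac3, 257 bp from a young peak. The member at Sirt1, the NAD-dependent deacetylase, was centred at −525 bp from the nearest start, and the nearest young peak was 276724 bp away. Hdac3 had a young-only peak and no old one.

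The circadian clock list had the largest share with a member, 11 of 21 genes (52.4%, against 19.1% of all genes). Of the 19 with an island-like start 10 had a member (52.6%, against 29.4% of all such genes). Of the 11 genes 7 had no young peak at any start, where 81.4% of all genes with a member had none. A young-only peak was found at 9.52% of the list and a shared peak at 23.8%. Clock and Arntl, whose products form the activating dimer of the clock, had 2 overlapping members each and no young peak at a start. At Clock the members were centred at −15 bp and −201 bp from annotated starts, and the nearest young peak was 9407 bp away. At Arntl they were centred 38 bp and 310 bp downstream, and the nearest young peak was 527258 bp away. Per2, a repressor of that dimer, had 1 member, centred 130 bp past the start. Bhlhe40, a repressor of the clock, had 1 beside a shared peak. Per3, Rora, Tef, Hlf, Ciart and Csnk1d were also among the 11, with 1 each. The members at Csnk1d, Rora, Bhlhe40 and Tef were 10, 311, 551 and 554 bp from a young peak. The hour at which livers were taken is not given in the sources used here, and its part was not tested.

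The proteasome list had a member at 14 of 36 genes (38.9%, or 37.1% of the 35 with an island-like start, against 29.4% of all such genes), all 14 without a young peak at any start (81.4% of all genes with a member had none), beside 6 genes with a young-only and 7 with a shared peak. The 14 included Psmb8, a subunit of the immunoproteasome, with 3 members, and Psmb9 and Psmb10, the other inducible subunits, with 1 each. They also included core subunits (Psma3, Psmb1, Psmb2) and subunits of the regulatory particle (Psmc1, Psmc2, Psmc5, Psmd1, Psmd2, Psmd4, Psmd5, Psmd7) with 1 each. Psmb8 and Psmb9 lie in the major histocompatibility region of chr17. Chaperones and the unfolded protein response, all 31 with an island-like start, had shared peaks at 22 genes (71.0%, against 9.95% of all genes and 16.1% of those with such a start) and a member at 8 (25.8%, against 19.1% and 29.4%). Of the 26 chaperone genes with any old peak 30.8% had a member, against 69.2% of all such genes. Of the 8 with a member 4 had no young peak at any start. Those with members were Hsp90b1, Hspa9 and Dnaja1 with 2, and Ern1, Calr, Hspa8, Hspd1 and Hspe1 with 1. Hspd1 and Hspe1 are transcribed from a common promoter in opposite directions and shared the same member.

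**Figure D5:**
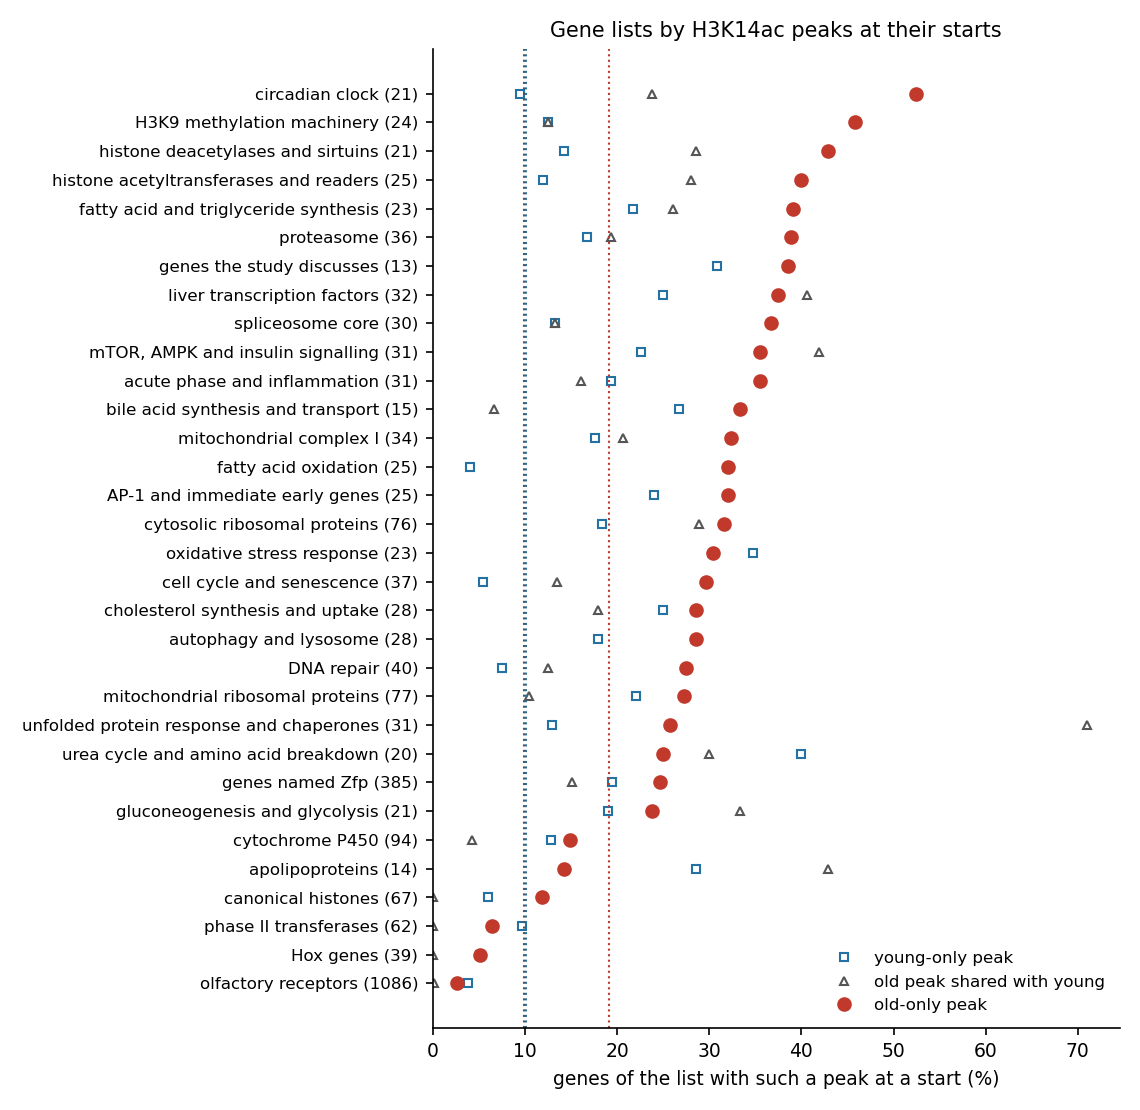
For each gene list of 12 or more genes (y axis, number of genes in brackets), the percentage of genes with an old-only (red circle), young-only (blue square) or shared (grey triangle) H3K14ac peak at a start is shown (x axis). Dotted lines mark the same percentages over all protein-coding genes, 19.1% (red), 10.1% (blue) and 9.95% (grey), and old-only peaks run from 2.67% of olfactory receptors to 52.4% of circadian clock genes.

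Genes of liver metabolism had members at shares on both sides of the 19.1% of all genes. Among genes with an island-like start, the share was 47.6% of 21 liver transcription factors and 58.3% of 12 genes of fatty acid synthesis. It was 30% of 20 genes of fatty acid oxidation, 30.4% of 23 of cholesterol and 33.3% of 9 of glucose. It was 40% of 10 genes of the urea cycle list and 2 of 2 of bile acids. None of these lay below the 29.4% of all genes with such a start. The shares of oxidation and cholesterol were about equal to it, and those of glucose and bile acids rest on 9 and 2 genes. The shares that follow are of whole lists. Of 32 liver transcription factors 12 had a member (37.5%), beside 13 with a shared peak. Srebf1, the regulator of fatty acid synthesis, and Rxrb had 2, and Cebpa had 1, which was 687 bp from a young peak, beside 2 shared peaks. Fatty acid and triglyceride synthesis had members at 9 of 23 genes (39.1%), with 2 at Agpat3 and 1 each at Acacb, Acly and Agpat1. The members at Acly and Agpat1 were 161 and 42 bp from a young peak. Fatty acid oxidation had 8 of 25 (32.0%, the same share as with a shared peak, and 4% with a young-only peak), among them Acadl, Acadm and Cpt2. Cholesterol synthesis and uptake had 8 of 28 (28.6%), among them Mvk and Mvd of the mevalonate pathway, the efflux pump Abca1 and Insig1, a brake on sterol synthesis. The member at Insig1 was 174 bp from a young peak, and the gene also had a shared peak. Bile acid synthesis and transport had 5 of 15, which were Cyp8b1, the 12-alpha-hydroxylase, Cyp27a1, Cyp7b1, the phospholipid exporter Abcb4 and Fgfr4. The member at Cyp7b1 was 31 bp from a young peak. In glucose metabolism 5 of 21 genes had a member. The glycolytic gene Eno1 had 3, and Pck2, Pgam1 and Pygl had 1 each. Urea cycle and amino acid breakdown had 5 of 20 (Asl, Fah, Hgd, Bckdha and Bckdhb), beside 8 with a young-only peak. Of 14 apolipoprotein genes 2 had a member, Apoa5 and Apoe (14.3%), beside 6 with a shared and 4 with a young-only peak. No apolipoprotein gene has an island-like start, so the 14.3% is to be read against the 6.55% of genes without one. No young peak lay at any start of 7 of the 12 liver transcription factors with a member. The same held for 5 of 9 genes of fatty acid synthesis, 6 of 8 of oxidation and 7 of 8 of cholesterol. For glucose it was 5 of 5, for the urea cycle 4 of 5, for bile acids 3 of 5 and for apolipoproteins 1 of 2. Over all genes with a member it was 81.4%.

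The lists of signalling, growth and stress are to be read against the same shares, 19.1% of all genes and 29.4% of those with an island-like start, and several lay close to the latter. Of 31 genes of signalling through insulin, AMPK and mTOR 11 had a member (35.5%, or 34.5% of the 29 with an island-like start), and 7 of the 11 had no young peak at any start. Foxo3, the transcription factor restrained by insulin, had 3, the closest 434 bp from a young peak. Prkab1 had 2 and Akt1 had 1. The cell cycle and senescence list had 11 of 37 (29.7%, or 31.4% of the 35 with an island-like start), near the share of all such genes. Cdkn1b, which encodes the cyclin-dependent kinase inhibitor p27, had 3, E2f3 and Mcm4 had 2, and Cdk2 and Cdkn1a, which encodes p21, had 1. DNA repair had 11 of 40 (27.5%, or 28.2% of the 39 with an island-like start), none of which had a young peak at a start, against 81.4% without one over all genes with a member. There were 2 members at the DNA ligase gene Lig3 and 1 at Atr, a kinase of the damage response. Acute phase and inflammation had 11 of 31 (35.5%), with 2 members at Il6st, the signal-transducing receptor of interleukin 6, and 1 each at Cxcl1, Hpx and Icam1. Of these 11 genes 5 had no young peak at any start, and the members at Hpx and Icam1 were 325 and 458 bp from a young peak. Of the oxidative stress genes 7 of 23 had a member (30.4%, or 30% of the 20 with an island-like start). There were 8 with a young-only peak (34.8%, against 10.1% of all genes) and 7 with a shared peak. Nfe2l2, the master regulator of the antioxidant response, had 3 members, Taldo1 had 2, and Gpx4 and Keap1 had 1 each. The member at Keap1 was 424 bp from a young peak, and 5 of the 7 genes had no young peak at any start. The immediate early list had 8 of 25 (32.0%), with 2 at Ier5 and 1 at Atf3, Egr1 and Fosl2. Autophagy and lysosome had 8 of 28 (28.6%), with 2 at Rb1cc1 and Ulk1 and 1 at Atg12 and Atg16l1. All genes of both lists have an island-like start. The members at Ulk1 were 100 and 464 bp from a young peak, beside a shared peak. In each of the 2 lists 7 of the 8 genes had no young peak at any start.

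Housekeeping lists lay around the share of genes with an island-like start. Spliceosome genes had 11 of 30 (36.7%), with 4 members at U2af2, 2 at Sf3b4 and 1 at Prpf3 and Prpf8. All 11 had no young peak at any start, against 81.4% of all genes with a member. Complex I had 11 of 34 (32.4%), with 2 at Ndufa12 and 1 at Ndufa10, Ndufa13 and Ndufa8. The members at Ndufa13 and Ndufa8 were 775 and 263 bp from a young peak, and 7 of the 11 genes had no young peak at any start. Cytosolic ribosomal proteins had 24 of 76 (31.6%), among them Rpl7a and Rps21 with 2 and Rpl13 with 1. The members at Rpl7a were 38 and 842 bp from a young peak, and 21 of the 24 genes had no young peak at any start. Mitochondrial ribosomal proteins had 21 of 77 (27.3%), with 2 at Mrps18b, Mrps24 and Mrps5 and 1 at Mrpl1. Of these 21 genes 16 had no young peak at any start. Genes named Zfp, which are not a housekeeping list, had 95 of 385 (24.7%, or 30% of the 243 with an island-like start). There were 3 members at Zfp13 and Zfp664 and 2 at Zfp113 and Zfp236. Some lists lay below the 19.1% of all genes. Cytochrome P450 genes had a member at 14 of 94 (14.9%), among them Cyp2c68 with 2 and Cyp1a1, Cyp27a1 and Cyp2c38 with 1. Only 8 P450 genes have an island-like start and 0 of these had a member, so that the 14 are to be read against the 6.55% of genes without such a start. Canonical histones had 8 of 67 (11.9%, among them Hist1h1c, Hist1h1e, Hist1h2ag and Hist1h2be), which rested on 5 peaks, since neighbouring genes such as Hist1h1e and Hist1h2be shared a member. Of the 52 histone genes with an island-like start 7 had a member (13.5%, against 29.4% of all such genes). Phase II transferases had 4 of 62 (6.45%), Gstz1 with 2 and Gstm1, Gstt3 and Sult1d1 with 1. The member at Gstm1 was 120 bp from a young peak. Only 7 of the 62 have an island-like start, 1 of them with a member, so that the list is to be read against the same 6.55%. Hox genes had 2 of 39 (Hoxa7 and Hoxc4), and of the 28 with an island-like start 1 had a member (3.57%, against 29.4%). Olfactory receptors had 29 of 1086 (2.67%, among them Olfr1055, Olfr1262, Olfr1278 and Olfr1383). Olfactory receptors, which are silent in liver, have no island-like start. Sox9, the cholangiocyte marker, had 2 members, 333374 bp or more from a young peak, while the other 5 cholangiocyte markers had none. No list was tested against another.

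Among the further genes that the study discusses, Srf, Onecut1 and Nr1h4 had 1 member each. Srf, which encodes serum response factor, had a member centred 181 bp past its start (chr17:46555745-46556244), 9402 bp from the nearest young peak. Onecut1, which encodes Hnf6, had a member at −387 bp from a start and 526 bp from a young peak, beside 3 shared peaks. Nr1h4, which encodes the bile acid receptor FXR, had a CpG-poor member (ratio 0.29) centred 996 bp past a start and 15979 bp from a young peak. Apob and Ppara had a shared peak and no member, Apoc1 and Nr1i3 had young-only peaks, and Nr1h3 and Nr1i2 had no H3K14ac peak at a start at either age.

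Members also lay at microRNA genes, which were the nearest start for 1.31% of members, 1.44% of young-only and 1.19% of shared peaks. Within 1 kb of a member lay the annotated starts of 101 microRNA genes, 63 of which matched an entry of the RefSeq microRNAs by symbol. MicroRNAs silence messenger RNAs through pairing of their seed, bases 2 to 8. The mature sequences printed here (RefSeq, GRCm38, seed in capitals) are of microRNAs known from liver, chosen after the values were seen, and are grouped by seed. The miR-192 and miR-194-2 hairpins lie in 1 cluster, and the member near them (chr19:6264016-6264515) was 759 bp from a young peak. The member near Mir148a (chr6:51270423-51270922) was 7018 bp from one.
miR-192-5p: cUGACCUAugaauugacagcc
miR-194-5p: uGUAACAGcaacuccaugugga
miR-148a-3p: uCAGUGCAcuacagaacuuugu
The hairpins of miR-29b-2 and miR-29c, which have the same seed, shared 1 member (chr1:195036831-195037330), 1282 bp from a young peak.
miR-29b-3p: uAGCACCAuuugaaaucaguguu
miR-29c-3p: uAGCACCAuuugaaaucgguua
The 3 hairpins of the let-7 family, which share a seed, were near 2 members. Mirlet7c-2 overlapped and Mirlet7b lay past the end of 1 member (chr15:85706661-85707160), 27039 bp from a young peak, and another (chr10:122986118-122986617), 152874 bp from one, was centred at −643 bp from the hairpin start of Mirlet7i.
let-7b-5p: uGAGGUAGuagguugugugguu
let-7c-5p: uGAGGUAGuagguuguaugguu
let-7i-5p: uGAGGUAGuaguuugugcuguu
The hairpin start of a microRNA is not the start of its primary transcript, so these members are near the hairpin and not necessarily at the promoter.

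Members were spread over all 19 chromosomes in proportion to genes within limits. Per 100 protein-coding genes there were between 18.2 members on chr7 and 30.2 on chr12. As a share of the old 500 bp peaks at starts, members ranged from 62.4% on chr4 to 74.1% on chr18. The densest megabase was chr10:81000001-82000000 with 26 members at 49 protein-coding genes, followed by the 2 adjacent megabases of the major histocompatibility region, chr17:35000001-36000000 with 23 and chr17:34000001-35000000 with 22.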

How the data were processed

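H3K14ac, Setdb1 and Kap1 were profiled by ChIP-Seq in livers of young and old mice. Per the study's methods, the authors aligned reads with BWA v0.7.12 to mm10, removed duplicates with Picard v1.134, kept uniquely aligned reads with a phred score of at least 30, merged livers, and called peaks against input with PeakSeq (FDR 5%, q-value 0.02 for H3K14ac, 0.04 for Setdb1 and 0.05 for Kap1). The deposited files hold chromosome, start and end only. These positions carry no count, signal or score, so sequencing depth per sample is unknown and no test was possible. Where precision is given, it is as 95% Wilson intervals.

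Peaks were intersected (at least 1 shared base), assigned to starts of GENCODE basic M21 and read against GRCm38 with Python 3.11.15 and numpy 2.4.6. The overlap code gave the same result as bedtools 2.31.1 in all 60 comparisons made (0 differed) and recovered 300 of 300 planted overlaps in simulated data. Stretches were not taken from chr18. Second copies were sought with minimap2 2.31. Genes named are the 10 with the most members, for each list all genes with a member up to 6 and otherwise the 4 with the most, genes the study discusses, and the 3 members with the highest and lowest CpG ratio. Members at an old Setdb1 and Kap1 peak would have been named but numbered 0. Some genes that the rule names are not reported here. Genes named beyond this were chosen after their values were seen. The members, lists and rules were chosen with earlier results of these data known. For H3K14ac a legend of the study gives 2 merged livers, where the methods and the labels give 3. H3K14ac was sequenced on another instrument model than the factors. The sequential ChIP samples and H3K9me3 were not analysed here. Alternatives were other distances to a start, a midpoint rule, a wider gap to young peaks, every width, protein-coding starts only, the first 50% of the list, merged members and looser or stricter factor overlap.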

Additional observations from a re-analysis of the deposited data

How the results depend on the processing

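No paired analysis was possible because the livers of an age were pooled before peaks were called, and for the same reason no liver could be left out. Of 80 alternatives, 52 stayed within the interval of the value as reported, or within 1.5 times a count, and 28 did not. Which genes remained was not counted. The first 50% of the old list, with fewer peaks by construction, gave 3208 members, with Kap1 shares of 0.748% (old) and 1.53% (young), a young Setdb1 share of 0.436%, 77.6% centred downstream, a median CpG ratio of 0.798 and 13.6% with a young peak at the start. Within 500 bp of a start, 75.9% were centred downstream, the CpG ratio was 0.779 and 12.9% had a young peak at the start. Within 2 kb, the Kap1 shares were 1.98% (old) and 3.23% (young), 72.3% were downstream, the CpG ratio was 0.694 and 16.2% had a young peak at the start. By midpoint distance the CpG ratio was 0.763. With protein-coding starts only, the Kap1 shares were 0.988% and 1.48%, the young Setdb1 share 0.447%, the downstream share 77.1% and the CpG ratio 0.777. Without members within 500 bp of a young peak, 4.13% had a young peak at the start, which the setting itself brings about. A gap of up to 500 bp to the factor peak gave 2.51% and 3.99% for old and young Kap1 and 0.415% and 1.5% for old and young Setdb1, and a factor midpoint inside the peak gave 1.10% and 1.91% for Kap1. Fewer peaks by construction lower the count of members and that of genes with a member. The cause of the other shifts in the first 50% of the list was not tested. Nor was the cause of shifts under the other settings that do not bring them about themselves. Every width and merging of overlapping members changed none of the values beyond those limits. The number of protein-coding genes with a member stayed between 2921 and 4353. Unknown depth, pooled livers and a threshold on each list limit all comparisons, since a site just below the threshold in young liver is listed as absent.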
